A study of Mus musculus with 3 samples.

Results

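The genes described here encode the mouse MHC class II molecules and the proteins that load, edit and switch them on: H2-Aa, H2-Ab1, H2-Eb1, H2-DMa, H2-DMb2, H2-Oa, H2-Ob, Cd74 and Ciita. They were chosen by name, and every probe set that the platform annotation gives to one of these symbols alone was taken. All 9 genes had such a probe set, 19 in all, among 34945 probe sets that name 1 gene (18193 genes). Of the 19, 18 passed the filter on low values, and the third Ciita probe set did not. Expression was measured on 3 arrays of follicular regulatory T (Tfr) cells, regulatory T cells that enter B cell follicles. The cells came from spleens of C57BL/6 mice on day 8 after OVA, and were sorted after lineage depletion by CXCR5, CD25, GITR, CD44 and CD4. The Rptor-null group held CD4-Cre Rptor fl/fl mice, in which Cre is active in CD4 and CD8 T cells and removes Rptor, the gene for the raptor subunit of the mTORC1 kinase complex. Its 2 biological replicates were pools of 8 mice. The WT group was a single pool of 4 wild-type mice, whose Cre and floxed-allele status was not stated. Every pool had 1 array, so the spread between replicates is known for the Rptor-null pools alone.

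An MHC class II molecule is a pair of an alpha and a beta chain that shows peptides from endosomes to CD4 T cells. The invariant chain, Cd74, fills the groove of new molecules and guides them to endosomes. There H2-DM exchanges its remnant for peptides, and H2-O restrains H2-DM. Ciita is the coactivator without which these genes are hardly transcribed. In mice the main producers are B cells, dendritic cells and macrophages, whereas mouse T cells, unlike activated human T cells, are generally held not to make class II themselves.

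Factors that recruit Ciita bind upstream of class II genes, at an X box followed by a Y box. The 5 members whose RefSeq start regions hold such a pair of letters are shown. They share these letters, and among them only H2-Aa had probe sets that passed the test described below. Each line runs 5′ to 3′ on the strand of the gene in GRCm38.p6. Capitals mark AAC, letters found in the X box, and TGATTGG, the letters of the Y box, which hold CCAAT on the other strand. In H2-Aa capitals also mark TGACGTCA, the letters of a CREB-type site. A match is a description of letters and shows no binding.
H2-Aa, chr17:34287857-34287917, minus strand: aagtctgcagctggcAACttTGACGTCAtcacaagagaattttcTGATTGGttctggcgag
H2-Eb1, chr17:34305763-34305822, plus strand: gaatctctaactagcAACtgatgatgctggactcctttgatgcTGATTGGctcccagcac
H2-Oa, chr17:34092290-34092350, plus strand: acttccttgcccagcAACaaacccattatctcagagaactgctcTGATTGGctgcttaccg
H2-Ob, chr17:34238805-34238862, plus strand: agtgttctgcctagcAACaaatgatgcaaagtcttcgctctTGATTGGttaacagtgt
H2-DMb2, chr17:34145113-34145173, plus strand: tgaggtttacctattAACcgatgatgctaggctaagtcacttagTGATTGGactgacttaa

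The search covered the 250 bases before each start, and not the bases after it, on both strands, and the letters were chosen after these windows had been read. AAC followed by TGATTGG after 20 to 30 bases was present in 0.91% of 32851 start regions, TGATTGG at any place in 7.23% and TGACGTCA in 1.55%. Counted from the first AAC, the gap was 26 bases in H2-Aa, H2-Oa and H2-DMb2, 25 in H2-Eb1 and 23 in H2-Ob. Among these 5 members, TGACGTCA was found in H2-Aa. H2-Eb2 and H2-DMb1, class II genes outside the set, also held the pair, and the 2 regions listed for H2-DMa did not. H2-Ab1, Cd74 and Ciita had no entry.

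The targeted gene and the arrays were examined first. Rptor, on its brightest probe set, read 353 and 412 in the Rptor-null pools, against 365 in the WT pool (limma adjusted p = 0.852). Whether its probes match the floxed exons was not given, so it does not check the deletion. Median intensities were 54.9 and 54.8 on the Rptor-null arrays, against 52.7 on the WT array. The 3′ to 5′ signal ratio of Gapdh was 1.94 and 2.58 in the Rptor-null pools, against 1.11 in the WT pool. All 42 probe sets for spiked bacterial controls were brighter on both Rptor-null arrays, by a median of 5.09-fold (range 1.56 to 10.95). These technical measures differ between the groups together with every result below, and their part in the results was not tested. Of the T cell markers, Cd3e read 3575 and 3850 in the Rptor-null pools, against 4347 in the WT pool, and Cd4 read 579 and 587 in the Rptor-null pools, against 696 in the WT pool. Foxp3, the regulatory lineage factor, read 587 and 423 in the Rptor-null pools, against 752 in the WT pool. Cxcr5, which encodes a receptor used in the sort, read 374 and 392 in the Rptor-null pools, against 713 in the WT pool, and was lower (limma adjusted p = 0.0152). Tnfrsf18 and Il2ra, named after their values were seen, encode GITR and CD25 of the sort. Tnfrsf18 read 1549 and 1453 in the Rptor-null pools, against 3837 in the WT pool, and was lower (limma adjusted p = 0.00708). Il2ra read 366 and 348 in the Rptor-null pools, against 464 in the WT pool (limma adjusted p = 0.147). The markers that define the labelled cells were above the filter level in every pool, which does not tell cell types apart. The myeloid markers Csf1r and Lyz2 read 7911 and 14972 in the WT pool, above Cd3e, Cd4, Foxp3 and Cxcr5. Cd3d and Cd3g, T cell markers named after their values were seen, read 12582 and 9143 in the WT pool, above Csf1r. The macrophage markers Adgre1 and C1qa read 602 and 2335 in the WT pool, below Cd3e. Intensities of different probe sets are not on a common scale, so these readings do not give shares of cell types.

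Among the class II genes the calls fell on H2-Aa alone, and whether the members differ from each other was not tested. In Rptor-null pools 3 of the 18 kept probe sets were higher, all of them for H2-Aa, 0 were lower and 15 did not pass the test (limma with Benjamini-Hochberg adjustment over 27022 kept probe sets, threshold 0.05). Of all kept probe sets 8.92% were called, 2.81% higher and 6.11% lower. At an unadjusted p under 0.05 there were 6 member probe sets, and 6750 of all kept probe sets (25.0%). The median log2 difference of the 18 was 0.011, beside -0.029 over all kept probe sets, and the members ranged from -0.36 to 0.96. That background varied with intensity. Over 5 bins of kept probe sets by mean intensity, the median was 0.063 in the dimmest and -0.13 in the brightest. The background medians given here and below are not matched for intensity. Both Rptor-null arrays lay above WT for 8 member probe sets and below it for 5 (all kept probe sets, 35.8% above and 43.9% below). For the other 5, WT lay between them. In both arrays a difference of at least 2-fold was reached by 0 of the 18, against 284 of all 27022 kept probe sets. At so small a share, 0 of 18 does not set the members apart.

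**Figure D1:**
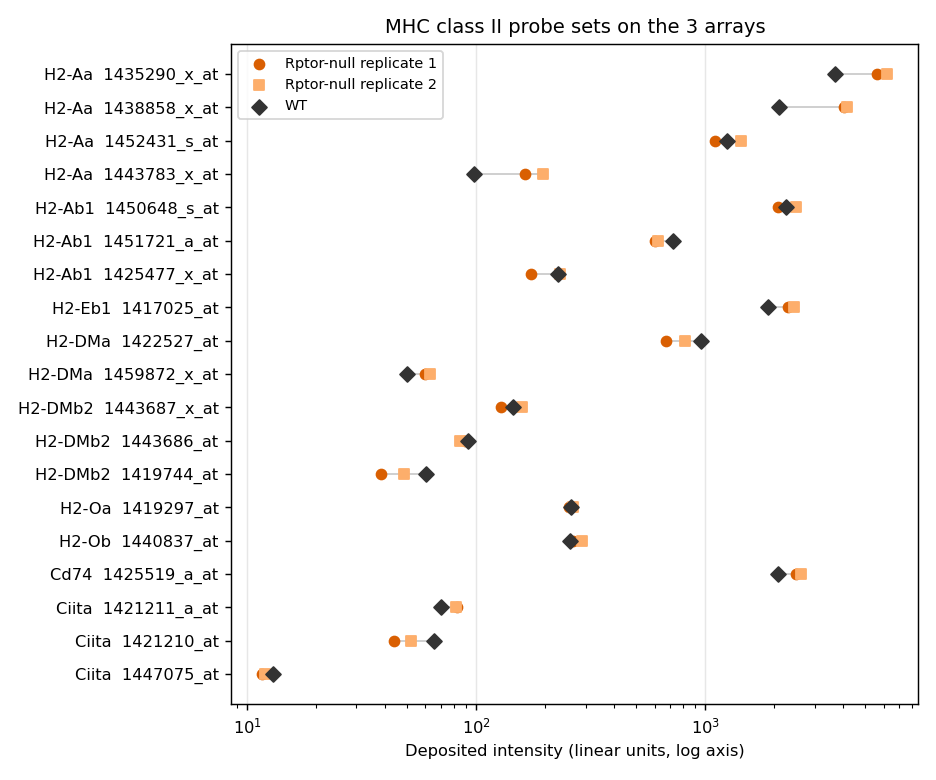
Deposited intensity (log axis) of each of the 19 member probe sets, 1 line per probe set, on the 2 Rptor-null arrays (circle, square) and the WT array (diamond). WT lies clearly left of both Rptor-null arrays for 3 H2-Aa probe sets, and close to them or between them for most others.

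H2-Aa encodes the alpha chain of the I-A molecule. Its brightest probe set, 1435290_x_at, read 5632 and 6220 in the Rptor-null pools, against 3697 in the WT pool, a mean of 5926 ± 416 (SD, n = 2) in the Rptor-null pools. It rose 1.60-fold (log2 difference 0.68 ± 0.095 SE, limma adjusted p = 0.0131), where every fold is taken on intensity + 16. Probe set 1438858_x_at read 4028 and 4133 in the Rptor-null pools, against 2093 in the WT pool, and rose 1.94-fold (0.96 ± 0.088 SE, limma adjusted p = 0.00746). It had the largest difference among the members, and its Rptor-null arrays differed from each other by far less than from WT. Probe set 1443783_x_at read 164 and 196 in the Rptor-null pools, against 98.0 in the WT pool, and rose 1.71-fold (0.78 ± 0.18 SE, limma adjusted p = 0.0459).

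The remaining H2-Aa probe set, 1452431_s_at, did not follow. It read 1100 and 1434 in the Rptor-null pools, against 1242 in the WT pool, so that WT lay between the replicates (log2 difference 0.016 ± 0.16 SE, limma adjusted p = 0.965). The probe sets of this gene thus spanned 0.94 on the log2 scale. Among the 599 genes with 4 kept probe sets the median span was 0.51, and 9.02% spanned as much or more. The mean over the 4 H2-Aa probe sets was 0.61 and passed the test over genes (limma adjusted p = 0.0122). The suffix _x_at marks probe sets that can match several transcripts, and all 3 higher ones carry it. Leaving out all probe sets with the suffix _x_at, _s_at or _a_at leaves no H2-Aa probe set to test. Without a mean-variance trend in limma the adjusted p-values of the 3 were 0.0756, 0.0507 and 0.0717, and 1 probe set was called higher and 1 lower in the whole table.

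H2-Ab1 encodes the beta chain that pairs with the H2-Aa product. Its brightest probe set, 1450648_s_at, read 2068 and 2484 in the Rptor-null pools, against 2258 in the WT pool, with WT between the replicates (log2 difference 0.0055 ± 0.13 SE, limma adjusted p = 0.985). Probe set 1451721_a_at read 604 and 620 in the Rptor-null pools, against 726 in the WT pool (-0.24 ± 0.12 SE, limma adjusted p = 0.270). Probe set 1425477_x_at read 173 and 233 in the Rptor-null pools, against 228 in the WT pool (-0.17 ± 0.20 SE, limma adjusted p = 0.669). None of the 3 H2-Ab1 probe sets passed, and none was above WT in both pools. Whether the H2-Aa and H2-Ab1 differences differ from each other was not tested.

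H2-Eb1 encodes the beta chain of the I-E molecule. C57BL/6 mice do not show I-E at the cell surface, because their H2-Ea gene, for the alpha chain, is defective; RefSeq lists it as a transcribed pseudogene. H2-Eb1 read 2306 and 2448 in the Rptor-null pools, against 1883 in the WT pool. Both replicates lay above WT, 1.26-fold on average, without passing the test (log2 difference 0.33 ± 0.098 SE, limma adjusted p = 0.0850). The brightest H2-Ea probe set read 167 and 216 in the Rptor-null pools, against 181 in the WT pool (limma adjusted p = 0.879). H2-Eb2, a second I-E beta gene, read 162 and 144 in the Rptor-null pools, against 123 in the WT pool (limma adjusted p = 0.378).

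Cd74, the invariant chain, was measured by 1 probe set, which can match several transcripts. It read 2475 and 2605 in the Rptor-null pools, against 2067 in the WT pool. The 1.23-fold difference had the same sign in both pools and did not pass (log2 difference 0.29 ± 0.095 SE, limma adjusted p = 0.109). After quantile normalization both Cd74 and H2-Eb1 passed, with limma adjusted p-values of 0.0493 and 0.0470. Under that scaling the calls over the whole table split into 880 higher and 913 lower, against 759 and 1651 without it.

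**Figure D2:**
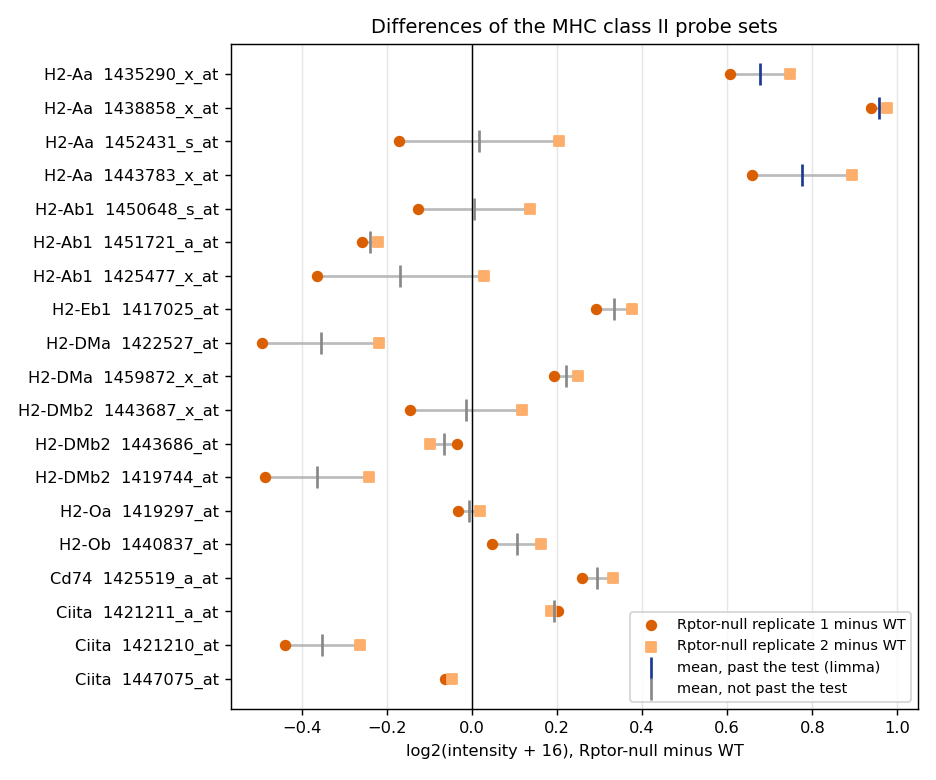
Difference of each Rptor-null array from WT in log2(intensity + 16), for each member probe set. Circles and squares are the 2 Rptor-null replicates and the upright bars their means, blue where the limma adjusted p was below 0.05; the last Ciita probe set, below the filter, was not tested and has no bar. The 3 blue bars, at 0.68, 0.96 and 0.78, all belong to H2-Aa.

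The peptide editor H2-DM is a pair of an alpha chain, from H2-DMa, and a beta chain, from H2-DMb1 or H2-DMb2. The brighter H2-DMa probe set read 674 and 818 in the Rptor-null pools, against 954 in the WT pool (log2 difference -0.36 ± 0.14 SE, limma adjusted p = 0.187). The dimmer one read 59.6 and 62.5 in the Rptor-null pools, against 50.1 in the WT pool, on the other side of WT (0.22 ± 0.16 SE, limma adjusted p = 0.468). The opposite signs of the 2 probe sets leave no direction for H2-DMa.

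For H2-DMb2, 3 probe sets were kept, with log2 differences between -0.36 and -0.014 and limma adjusted p-values between 0.268 and 0.973. The brightest, 1443687_x_at, read 129 and 158 in the Rptor-null pools, against 144 in the WT pool. The lowest difference was that of 1419744_at, which read 38.5 and 48.6 in the Rptor-null pools, against 60.3 in the WT pool, close to the filter level of 35.0. A pair of probe sets name H2-DMb2 together with the near-identical H2-DMb1, so neither was counted as a member. They read 170 and 193 in the Rptor-null pools, against 160 in the WT pool, and 425 and 300 in the Rptor-null pools, against 451 in the WT pool. Their signs were opposite and neither passed (limma adjusted p = 0.614 and 0.396).

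The inhibitor H2-O pairs the products of H2-Oa and H2-Ob and is best known from B cells. H2-Oa read 254 and 264 in the Rptor-null pools, against 260 in the WT pool, with WT between the replicates (log2 difference -0.0067 ± 0.15 SE, limma adjusted p = 0.984). H2-Ob read 265 and 288 in the Rptor-null pools, against 256 in the WT pool (0.11 ± 0.15 SE, limma adjusted p = 0.725). A further probe set names H2-Ob together with Gm20506 and read 83.5 and 63.3 in the Rptor-null pools, against 86.5 in the WT pool. No H2-O probe set passed the test.

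Ciita was dim on every probe set. Probe set 1421211_a_at read 82.7 and 81.7 in the Rptor-null pools, against 69.8 in the WT pool (log2 difference 0.19 ± 0.17 SE, limma adjusted p = 0.540). Probe set 1421210_at read 43.9 and 51.7 in the Rptor-null pools, against 65.2 in the WT pool, with the opposite sign (-0.35 ± 0.17 SE, limma adjusted p = 0.265). The third, 1447075_at, read 11.7 and 12.0 in the Rptor-null pools, against 12.9 in the WT pool, under the filter level. These readings give no direction for the coactivator.

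**Figure D3:**
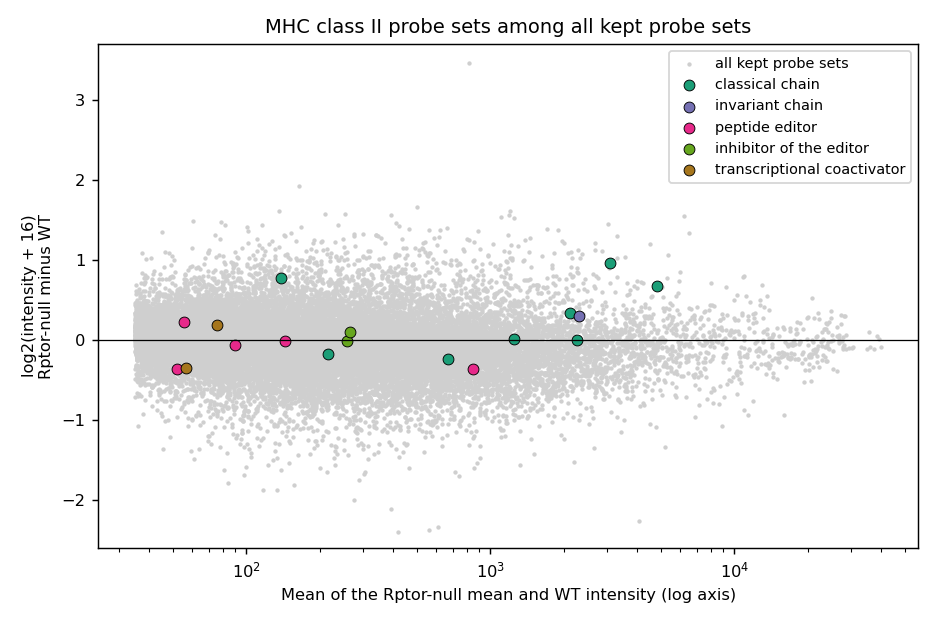
Mean log2 difference, Rptor-null minus WT, against mean intensity (log axis) for all 27022 kept probe sets in grey, with the 18 member probe sets coloured by role. The 3 higher H2-Aa probe sets stand towards the top of the cloud at their intensity, and the other members lie nearer to 0, between -0.36 and 0.33.

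Probe sets of the same member differed to unequal degrees. Of the 5 member genes with 2 or more kept probe sets, H2-Aa and H2-DMb2 had all mean differences on one side of 0, while H2-Ab1, H2-DMa and Ciita did not. The H2-Aa agreement rests on a value of 0.016 for the fourth probe set. Over all 5635 such genes, 50.9% were on one side. The span was 0.58 for H2-DMa and 0.55 for Ciita, against a median of 0.23 for genes with 2 kept probe sets. It was 0.24 for H2-Ab1 and 0.35 for H2-DMb2, against a median of 0.40 for genes with 3, so these were narrower than usual. Taking from the fit over all kept probe sets the call of each gene's brightest one, H2-Aa was higher, 0 members were lower and 8 did not pass. In the same fit the brightest probe sets of all 12721 genes were called higher in 2.76% and lower in 7.62%. The members' brightest probe sets had a median log2 difference of 0.105, beside -0.060 over all genes. Both Rptor-null arrays lay above WT for 5 members and below it for 1 (all genes, 4173 above and 6196 below). The list medians below are taken in this way. With the mean of each gene's probe sets the member median was -0.0067, beside -0.054. Whether the members differ from all genes was not tested.

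Genes that act on class II outside the family were read from lists chosen by function, with the brightest kept probe set for each gene. Among 16 transcription factors of class II promoters, 0 were higher and 1 was lower, with a median log2 difference of -0.12 (all 12721 genes, -0.060). The lower one was Irf4, a lymphocyte factor, which read 339 and 388 in the Rptor-null pools, against 586 in the WT pool (limma adjusted p = 0.0370). Rfxap, a subunit of the RFX complex that binds the X box, read 304 and 288 in the Rptor-null pools, against 418 in the WT pool (limma adjusted p = 0.0832). Rfxank, another subunit, read 173 and 174 in the Rptor-null pools, against 229 in the WT pool (limma adjusted p = 0.196). Spi1, the myeloid and B cell factor PU.1, read 271 and 282 in the Rptor-null pools, against 176 in the WT pool (limma adjusted p = 0.0516). Quantile normalization moved the median of these 16 genes to 0.0060 and left 1 higher and 0 lower.

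In the processing and traffic list 2 of 18 genes were higher and 2 lower, with a median of 0.27. Lgmn, an endosomal protease that cuts invariant chain and antigens, read 1059 and 1219 in the Rptor-null pools, against 642 in the WT pool, and rose 1.75-fold (limma adjusted p = 0.0174). Cst3, the cathepsin inhibitor cystatin C, read 5422 and 5523 in the Rptor-null pools, against 3742 in the WT pool, and rose 1.46-fold (limma adjusted p = 0.0159). The lower pair were tetraspanins, membrane organisers of leukocytes: Cd37 read 836 and 794 in the Rptor-null pools, against 1819 in the WT pool, and Cd9 read 593 and 627 in the Rptor-null pools, against 913 in the WT pool (limma adjusted p = 0.00811 and 0.0345). The number higher in this list depended on the setting, with 4 after quantile normalization, 5 with the 60th percentile filter and 6 with the mean of each gene's probe sets.

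Several class I presentation genes fell. Of 18 genes 0 were higher, 9 lower and 9 did not pass, with a median log2 difference of -0.36. The immunoproteasome subunit Psmb9 read 1832 and 1691 in the Rptor-null pools, against 3185 in the WT pool, and was 1.80-fold lower (limma adjusted p = 0.0111). A second such subunit, Psmb8, read 2958 and 2867 in the Rptor-null pools, against 4740 in the WT pool, and was 1.62-fold lower (limma adjusted p = 0.0114). Psme1, a proteasome activator subunit, read 3583 and 3637 in the Rptor-null pools, against 5585 in the WT pool, and the peptide transporter subunit Tap2 read 535 and 520 in the Rptor-null pools, against 824 in the WT pool (limma adjusted p = 0.0127 and 0.0271). The difference between the class I and class II lists was not tested. Without probe sets that can match several transcripts, 5 class I genes were lower.

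Among 9 costimulatory genes of antigen-presenting cells 1 was higher and 1 lower. Cd86, a ligand of CD28 and CTLA-4, read 696 and 784 in the Rptor-null pools, against 336 in the WT pool, and rose 2.14-fold (limma adjusted p = 0.0111). Pdcd1lg2, a ligand of PD-1, read 175 and 160 in the Rptor-null pools, against 388 in the WT pool, and was 2.20-fold lower in the Rptor-null pools (limma adjusted p = 0.0127). Icosl, the ligand of ICOS, read 127 and 134 in the Rptor-null pools, against 92.3 in the WT pool, and did not pass (limma adjusted p = 0.165). Cd274, the gene for PD-L1, read 538 and 568 in the Rptor-null pools, against 629 in the WT pool (limma adjusted p = 0.425). The median of the list was 0.072.

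Markers of the cell types that make class II were read beside these values. In bulk RNA, fewer cells of a type and less RNA per cell cannot be told apart. Of 16 macrophage and monocyte markers 7 were higher and 0 lower, with a median of 0.65, and their summed intensity was 49666 and 56493 in the Rptor-null pools, against 36118 in the WT pool. Adgre1, a surface receptor gene of macrophages, read 1047 and 1252 in the Rptor-null pools, against 602 in the WT pool. Csf1r, the receptor for macrophage colony-stimulating factor, read 12569 and 14904 in the Rptor-null pools, against 7911 in the WT pool, and the complement gene C1qa 3495 and 4246 in the Rptor-null pools, against 2335 in the WT pool. Lyz2, the lysozyme gene of myeloid cells, read 16033 and 17432 in the Rptor-null pools, against 14972 in the WT pool. Levels in the WT pool ranged over the list from 71.5 for Itgam to the value of Lyz2, all above the filter level.

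The B cell markers were mixed. Of 15 matched genes 11 were kept, 1 was higher and 0 lower, with a median of 0.081. The higher one, named after its values were seen, was Bank1, a B cell scaffold protein gene, with 721 and 886 in the Rptor-null pools, against 488 in the WT pool. The summed intensity of the 11 was 14142 and 16713 in the Rptor-null pools, against 15381 in the WT pool, most of it from Ighm, the IgM heavy chain. Without Ighm, likewise chosen after seeing the data, it was 2241 and 2493 in the Rptor-null pools, against 2197 in the WT pool. Ms4a1, the gene for CD20, read 130 and 136 in the Rptor-null pools, against 171 in the WT pool. Cd79a read 50.7 and 76.9 in the Rptor-null pools, against 62.7 in the WT pool, and Pax5 read 51.6 and 44.7 in the Rptor-null pools, against 43.9 in the WT pool, both near the filter level. Ebf1, Fcer2a, Cr2 and Fcrla were under it.

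For dendritic cells 9 of 10 matched genes were kept, 0 were higher and 1 was lower, with a median of 0.33. Their summed intensity was 1354 and 1542 in the Rptor-null pools, against 1358 in the WT pool. The lower one, named after its values were seen, was Cd209a, a lectin gene, with 137 and 129 in the Rptor-null pools, against 370 in the WT pool. Without it, a choice made after seeing the data, the sum was 1218 and 1413 in the Rptor-null pools, against 988 in the WT pool, and both Rptor-null arrays lay above WT for the other 8 genes. Itgax, the gene for CD11c, read 316 and 336 in the Rptor-null pools, against 245 in the WT pool (limma adjusted p = 0.151). The defining factor Zbtb46 read 52.8 and 60.2 in the Rptor-null pools, against 41.9 in the WT pool. Siglech read 75.8 and 69.6 in the Rptor-null pools, against 57.3 in the WT pool, and both genes were near the filter level. Flt3 read 134 and 181 in the Rptor-null pools, against 121 in the WT pool. Xcr1 was under the filter. No marker of the 3 lists was listed at 0, which does not show that each was expressed, since those under the filter also have values. Of 10 T cell markers 7 fell and 0 rose, with a median of -0.66 and a summed intensity of 28873 and 28420 in the Rptor-null pools, against 44374 in the WT pool. The part of these shifts in the H2-Aa result was not tested.

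**Figure D4:**
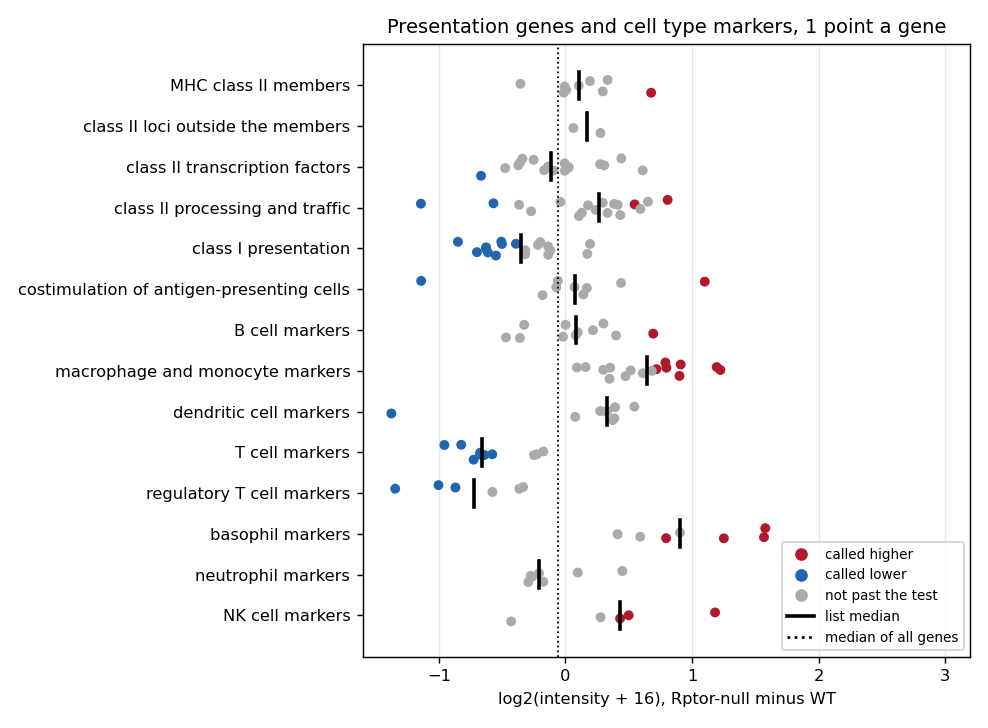
Log2 difference, Rptor-null minus WT, of each gene (1 point for its brightest kept probe set) in the class II members, the presentation lists and the marker lists. Red points were called higher, blue points lower and grey points did not pass; black bars are list medians and the dotted line is the median of all genes, -0.060. Macrophage and basophil markers lie to the right, T cell markers and 16 of the 18 class I genes to the left of the dotted line. Of the class II members only H2-DMa, at -0.36, lies to the left of it, and H2-Aa lies furthest to the right.

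The remaining marker lists had median log2 differences of 0.90 for basophils, 0.43 for NK cells, -0.21 for neutrophils and -0.72 for regulatory T cells. The called genes in them, named after their values were seen, were Ms4a2, Fcer1a, Gata2 and Csf2rb2 for basophils and Eomes, Klra8 and Klre1 for NK cells, all higher. Ctla4, Tnfrsf18 and Cxcr5 were lower among the regulatory T cell markers, and 0 of 7 neutrophil genes were called. Without a mean-variance trend in limma 0 genes of any list were called. The median of the class II probe sets was -0.034 in the first and 0.15 in the second Rptor-null pool relative to WT. Among 12712 other genes, 189 lay within 0.05 of that point in Euclidean distance on the log2 scale. The members' own probe sets lay between 0.082 and 1.28 from it, so 0 of them were within that distance, and the point is a median that no single member takes. The nearest were 1700102P08Rik, AU015836, Synpo2l, Hsf2bp and Cyrib, at distances between 0.0042 and 0.010.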

How the data were processed

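The authors deposited 1 linear intensity for each probe set and array. The submitters' processing notes name MAS5, and its version and scaling target were not given in the sources used here. Biotin-labelled cRNA was made from 100 ng of total RNA, per the labels' protocols. Gene symbols came from the platform annotation (34945 probe sets with 1 symbol, 932 with several, 9160 unnamed). Intensities were converted to log2(intensity + 16). The 64 control probe sets were left out, and the filter kept the 27022 probe sets whose level, the mean of the Rptor-null mean and WT, exceeded the 40th percentile (35.0). Rptor-null and WT were compared in R 4.3.3 with limma 3.58.1 (lmFit, eBayes with a mean-variance trend), two-sided, with Benjamini-Hochberg adjustment. The fit was also run on simulated data. Its 1 residual degree of freedom (beside 5.85 prior ones) comes from the 2 Rptor-null arrays, so WT was assumed to vary like them. The simulated arrays were drawn under the same assumption and do not check it. An exact permutation of 3 arrays could not reach 0.05. The number of arrays limits the precision. Members, lists and tests were chosen with earlier results of these data known. Named genes were all members, up to 4 genes of each pathway list ranked by the smaller of their differences where both lay on one side of WT, defining markers, Rptor, and the 5 nearest profiles. List genes with no probe set naming them alone were not used. Start-region sequences are RefSeq's (GRCm38.p6). The alternatives were other pseudocounts, filters, scalings, probe-set rules, variance priors and arrays left out.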

Additional observations from a re-analysis of the deposited data

How the results depend on the processing

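The members' counts were unchanged, at 3 higher and 0 lower, with pseudocounts of 1 and 64, the 60th percentile filter, median centring and robust eBayes. They were 2 higher without a filter and 4 higher after quantile normalization, with 0 lower in both. Over genes, 1 member was higher when limma was refitted with the brightest probe set and with the mean of probe sets. Without a mean-variance trend and without probe sets that can match several transcripts, 0 were higher, in the second case because no H2-Aa probe set remained. The median of the members was 0.15 without the first Rptor-null array and -0.034 without the second. Calls over the whole table, 759 higher and 1651 lower as reported, numbered 454 and 969 without a filter and 1 and 1 without a trend. They numbered 467 and 857 without probe sets of the suffix _x_at, _s_at or _a_at. The table gave 913 lower after quantile normalization, 500 higher when limma was refitted over genes with the brightest probe set of each and 467 higher with the mean of probe sets. No paired analysis was possible because there was a single WT array. With either Rptor-null array left out no residual degree of freedom remains, so those values have no test. What caused these shifts was not tested beyond the reduced sets of probe sets.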
